A study of Mus musculus with 6 samples.

Results

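The genes described here are 39 mouse genes of fatty acid uptake, synthesis and oxidation. They were chosen by name for their roles by a rule that used no measured value, although earlier results of these data were known. All 39 were among the 30342 gene names on the array, and 37 of them were tested among 16387 genes. Their transcripts were measured in γδ T cells, lymphocytes that carry a T cell receptor of γ and δ chains, sorted from the spleen. Eomes-positive cells were sorted as GFP+ and Eomes-negative cells as GFP-. Both came from the same Eomes-IRES-GFP mice (allele Eomestm1.1Twa, C57BL6 background), in which green fluorescent protein is made from the transcript of Eomes, a T-box transcription factor of killer lymphocytes. The reporter allele was thus carried by both groups. Each of 3 independent sorts pooled 4 to 6 spleens and gave 1 array per group, from mice aged 9 weeks in sort 1, 9.5 weeks in sort 2 and 7.5 weeks in sort 3. Cells bearing B220, CD4 or CD8β were first removed, and CD3+ TCRγδ+ TCRβ- cells were then sorted by GFP. Each array is therefore bulk RNA of a pool of spleens.

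A level below is a log2 probe signal relative to the 75th percentile of its own array, and a difference is the mean level in Eomes-positive cells minus that in Eomes-negative cells. Each probe had 4 spots, and it is called measured on an array if 50% or more of them were flagged as well above background. The input was 9 ng of RNA in sorts 1 and 2 and 4 ng in sort 3, and between 47.7% and 56.5% of probes were measured on an array. With limma on group alone, 198 genes were higher and 257 lower at an adjusted p under 0.05, which is 2.78% of the genes tested. With the sort as a block these counts were 602 and 711, or 8.01%. Eomes itself checked the sort, with 5.31, 4.96 and 4.48 on the Eomes-positive arrays of sorts 1, 2 and 3, against 0.72, 0.88 and -1.14 on the Eomes-negative arrays (difference 4.76, SE 0.59, limma adjusted p = 0.0177). Of 13 defining markers of γδ T cells, 7 were found by name, and all 7, among them Cd3d, Cd3e and Cd3g, were measured on all 6 arrays. The other 6, the γ and δ chain genes, were not analysed here. The 7 found all had negative differences, from -0.06 for Cd3d to -1.89 for Sox13 (limma adjusted p = 0.257), and none passed the test. From marker lists of 8 other cell classes, Eomes, Klrb1c (1.66), Klre1 (4.33) and Itgax (3.65) were higher, and Ccr9 (-4.23) and Cd8b1 (-2.86) were lower. The 2 brightest markers of the B cell list (Cd79b at -0.92, Cd22 at 0.70), the erythroid list (Hba-a1 at 0.24, Slc4a1 at 0.32), the granulocyte list (S100a9 at 0.25, S100a8 at 0.35), the stromal list (Pecam1 at -0.51, Kdr at -0.21) and the macrophage list (Itgam at 0.07, Lyz1 at 0.59) did not pass the test. Nor did those of the dendritic cell list (Siglech at 0.01, Bst2 at -0.50), the killer cell list (Gzma at -0.14, Cd7 at 1.10) and the αβ T cell list (Tcrb-J at -0.43, Zbtb7b at -0.51).

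Fatty acids enter cells through carriers such as CD36 or are released from lipoproteins by lipoprotein lipase, and acyl-CoA synthetases then activate them. The carnitine shuttle moves long chains into mitochondria, where β-oxidation shortens them and passes electrons to the electron transfer flavoprotein. The opposite route builds palmitate from citrate and then elongates and desaturates it. In T cells, memory and regulatory cells are known for fatty acid oxidation, and effector cells for synthesis during growth.

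None of the 37 tested genes passed the test in either direction, in the limma fit on group alone or with the sort as a block. At an unadjusted p under 0.05, 6 of them differed, or 16.2%, against a background of 12.3% of all genes tested. Of these 6, Scd2, Acadl, Cpt2 and Ppargc1a had positive differences (5.94% of all genes tested did so) and Acsl4 and Hadh negative ones (6.33%). The smallest limma adjusted p was 0.162, for the desaturase gene Scd2. With the sort as a block the smallest was 0.0639, for the coactivator gene Ppargc1a. With 3 arrays a group, the smallest two-sided p of an exact permutation test would be 0.1.

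The size of the differences was near that of the array as a whole, with a median size of 0.22 for the 37 genes and 0.20 for all genes tested. The median of the signed differences was -0.02, and -0.01 over all genes tested. Within sorts 1, 2 and 3 the median over the 37 genes was -0.05, -0.04 and -0.05, against -0.006, 0.008 and -0.023 over all genes tested. For 24 of the 37 genes, or 64.9%, the 95% interval of the difference lay within 2-fold in both directions, against 60.5% of all genes tested. The other 13, with intervals reaching beyond 2-fold, were Cd36, Lpl, Fabp4, Fabp5, Acsl1, Acsl3, Slc25a20, Acadl, Acadm, Scd1, Pnpla2, Pparg and Ppargc1a. These intervals, and the SEs given below, are from limma on group alone, which counts the spread between sorts as error. For each of these 13 the SE was smaller with the sort as a block, such as 0.09 against 0.44 for Fabp5 and 0.22 against 0.28 for Slc25a20. The groups did not overlap for 9 genes, or 24.3%, against 18.2% of all genes tested. In 4 of these the Eomes-positive arrays were the higher ones (Scd2, Acadl, Cpt2 and Ppargc1a), against 8.54% of all genes tested. In 5 they were the lower ones (Acsl4, Slc25a20, Echs1, Hadh and Acaa2), against 9.69%. The difference had 1 sign in all 3 sorts for 19 genes, or 51.4%, against 52.4% of all genes tested. It was positive for 8 of these and negative for 11, against 25.3% and 27.1% of all genes tested. For 27 of the 37 genes, or 73.0%, the means of the 3 sorts spread more widely than the groups differed, against 77.7% of all genes tested.

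**Figure D1:**
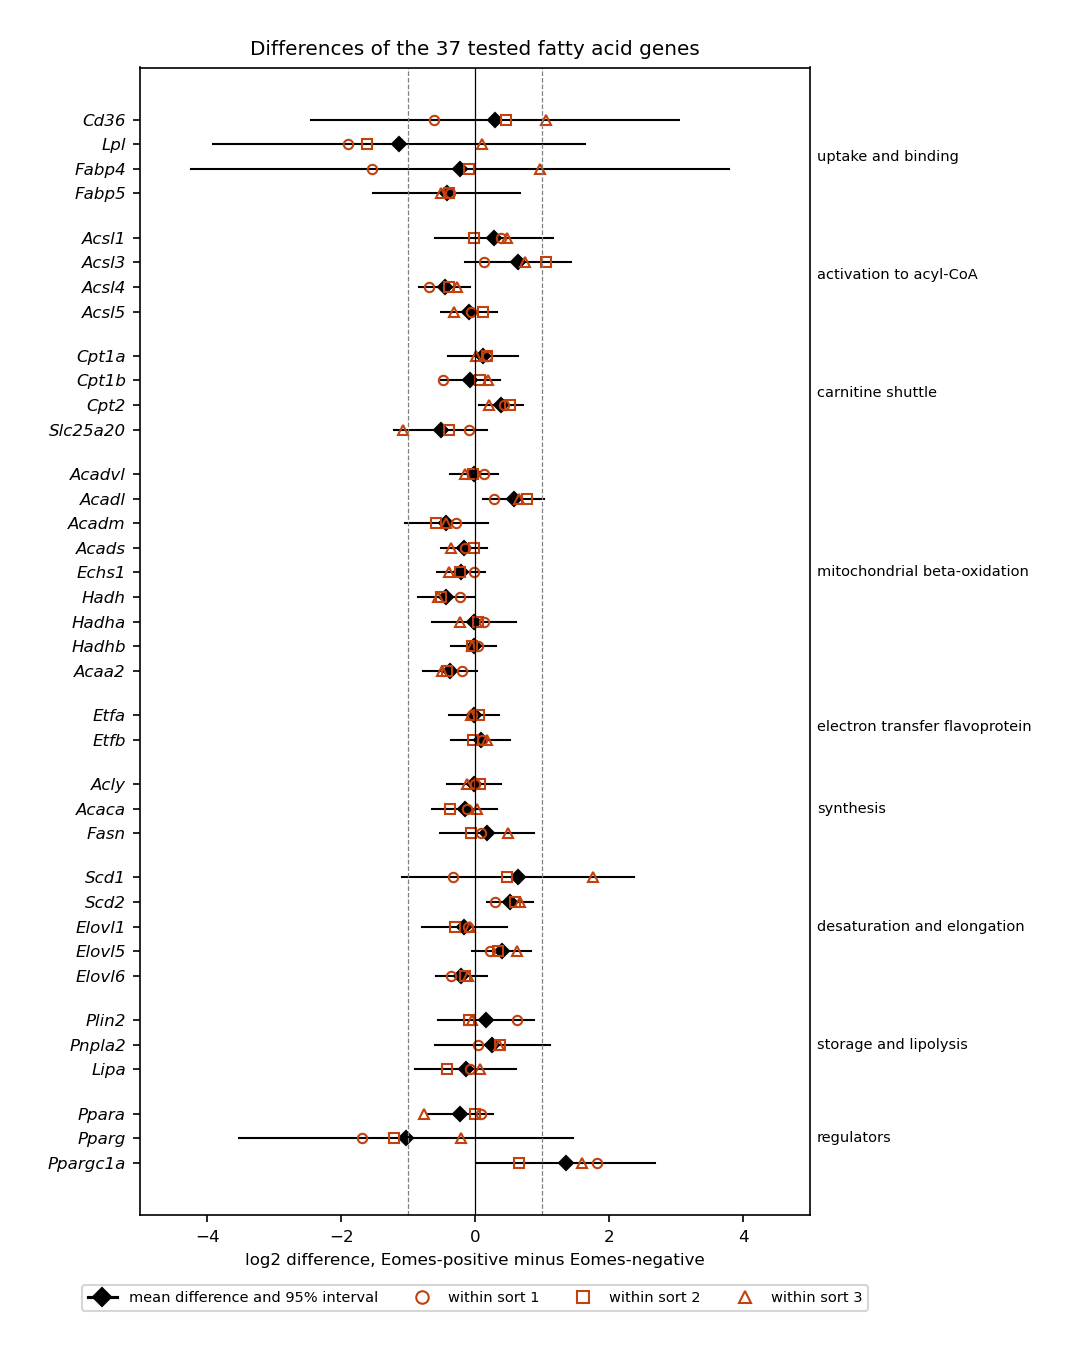
Log2 difference, Eomes-positive minus Eomes-negative, of the 37 tested genes in order of their roles. Diamonds with lines are the mean difference and its 95% interval from limma on group alone. Open symbols are the differences within sorts 1, 2 and 3, and dashed lines mark 2-fold. Most diamonds lie near 0, and the widest intervals belong to Fabp4, Lpl, Cd36 and Pparg.

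Uptake genes differed far more between sorts than between the groups. Cd36, the scavenger receptor that takes up long-chain fatty acids, had levels of -5.16, -1.48 and -2.58 on the Eomes-positive arrays of sorts 1, 2 and 3, against -4.54, -1.93 and -3.63 on the Eomes-negative arrays. The arrays of sort 2 were the highest in each group, and the groups overlapped (difference 0.30, SE 1.11). Lpl, lipoprotein lipase, had -4.97, -2.18 and -4.04 on the Eomes-positive arrays, against -3.08, -0.55 and -4.15 on the Eomes-negative arrays. The Eomes-negative arrays of sorts 1 and 2 were higher than their Eomes-positive partners, while sort 3 differed little (difference -1.14, SE 1.12, limma adjusted p = 0.891). Fabp4, a fatty acid binding protein of macrophages and adipocytes, had -6.21, -0.88 and -2.97 on the Eomes-positive arrays, against -4.67, -0.79 and -3.94 on the Eomes-negative arrays. Again sort 2 was the highest in both groups (difference -0.22, SE 1.63). Fabp5, the binding protein found widely in leukocytes, had -0.23, 0.96 and -0.05 on the Eomes-positive arrays, against 0.15, 1.35 and 0.46 on the Eomes-negative arrays. It was lower in the Eomes-positive cells of each sort, by a similar amount each time, although the groups overlapped (difference -0.43, SE 0.44, limma adjusted p = 0.899, and 0.0753 with the sort as a block). Fabp3, the heart form, was at background on the arrays of both groups.

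Markers of macrophages and monocytes varied between sorts in a similar way, although T cells had been sorted. All 19 markers on that list were measured on at least 1 array and 17 on all 6, and none was at background throughout. Their summed signal, relative to the 75th percentile, ranged from 19.4 to 164 on the Eomes-positive arrays and from 46.4 to 290 on the Eomes-negative arrays. Csf1r, the receptor of the macrophage growth factor, had levels of -0.09, 3.74 and 1.05 on the Eomes-positive arrays of sorts 1, 2 and 3, against 2.61, 5.14 and 0.22 on the Eomes-negative arrays. C1qa, a complement gene of tissue macrophages, had -2.11, 2.05 and -1.42 on the Eomes-positive arrays, against 1.65, 4.25 and -2.98 on the Eomes-negative arrays. Both were highest in sort 2, as were 17 of the 19 markers in each group, and in sort 1 the Eomes-negative array was the higher one, as for 16 of the 19. Itgam, an integrin gene with the brightest probe of the list, was highest in sort 3 instead, at 4.59 on the Eomes-positive and 4.78 on the Eomes-negative array. The lysozyme genes Lyz1 and Lyz2 were higher on the Eomes-positive array of each sort, by 0.49, 0.25 and 1.02 in sorts 1, 2 and 3 for Lyz1. Ccr2, a chemokine receptor gene, was lower on the Eomes-positive array of each sort, with differences of -3.25, -1.57 and -2.87 in that order. Its groups did not overlap (difference -2.56, SE 0.59, limma adjusted p = 0.112, and 0.0337 with the sort as a block). Cd36, Lpl, Fabp4, Scd1 and Pparg shared the high levels of sort 2 with these markers. Fabp5, Acsl1, Etfb and Plin2 were also highest in sort 2 in each group. The part of such cells in any of these genes was not tested. In bulk RNA fewer cells of a type and less RNA per cell cannot be told apart. Without sort 2, the differences were 0.22 for Cd36, -0.90 for Lpl, -0.29 for Fabp4, 0.71 for Scd1 and -0.95 for Pparg. Granulocyte markers also stood high in sort 2, with S100a9, of the brightest probe on that list, at 7.14 on its Eomes-positive and 6.87 on its Eomes-negative array. Of the adipocyte markers, Lep was measured on 0 arrays and Adipoq on 2.

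**Figure D2:**
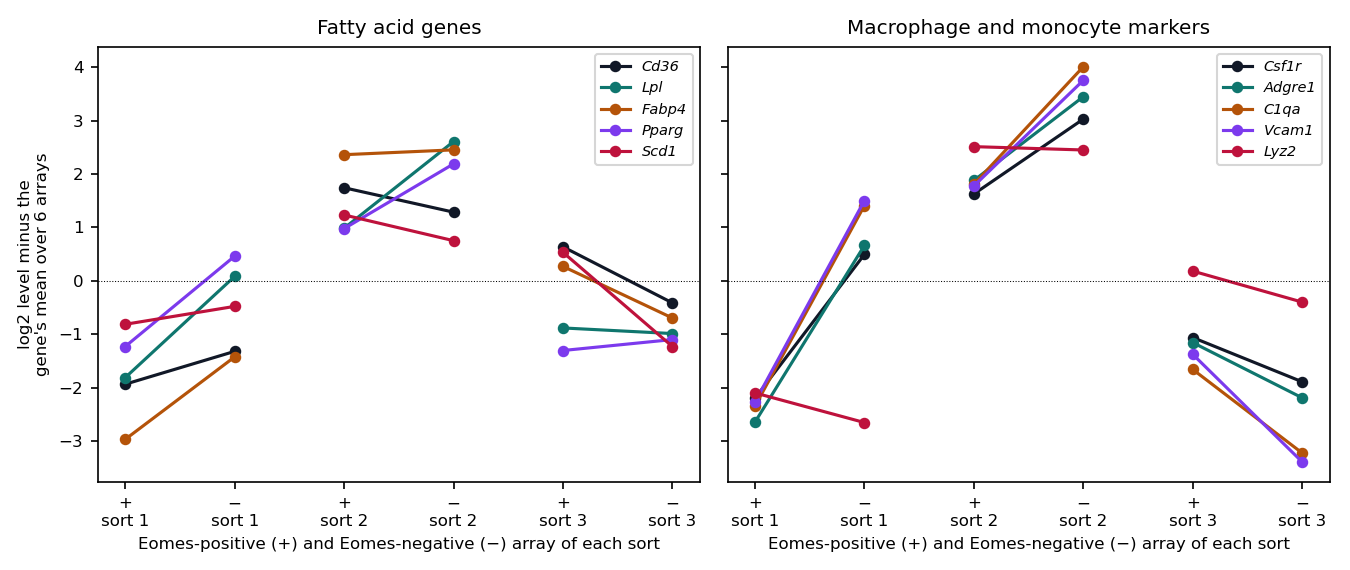
Log2 level minus the gene's mean over the 6 arrays, for 5 fatty acid genes (left) and 5 macrophage and monocyte markers (right), with the Eomes-positive (+) and Eomes-negative (−) array of each sort joined by a line. Both arrays of sort 2 lie above the gene's mean for all 10 genes shown.

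Of the acyl-CoA synthetases, which activate fatty acids for every later step, Acsl4 had the steadiest difference. Acsl4, an enzyme with a preference for arachidonate, had levels of 1.69, 1.75 and 1.71 on the Eomes-positive arrays of sorts 1, 2 and 3, against 2.39, 2.14 and 1.99 on the Eomes-negative arrays. The groups were separate, and the 3 Eomes-positive arrays lay within a narrow band. The difference of -0.45 (SE 0.15) did not pass the test (limma adjusted p = 0.294). Its probe lies at chrX:138752591-138752650 in the mm9 build. Acsl3, an enzyme of the endoplasmic reticulum and lipid droplets, had -3.77, -3.18 and -2.77 on the Eomes-positive arrays, against -3.91, -4.23 and -3.52 on the Eomes-negative arrays. Its Eomes-positive array was the higher one in each sort, but the groups overlapped (difference 0.64, SE 0.32, limma adjusted p = 0.556). Acsl1 had a difference of 0.28 (SE 0.36) and Acsl5 one of -0.09 (SE 0.17). Acsl6 was not well above background on any array.

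In the carnitine shuttle, the inner and outer carnitine palmitoyltransferases Cpt2 and Cpt1a had positive differences and the carrier between them a negative one. None of these passed the test. Cpt2, the transferase of the inner membrane, had levels of 0.14, 0.25 and 0.07 on the Eomes-positive arrays of sorts 1, 2 and 3, against -0.29, -0.27 and -0.13 on the Eomes-negative arrays. All Eomes-positive arrays lay above all Eomes-negative ones (difference 0.39, SE 0.13, limma adjusted p = 0.298; probe at chr4:107576591-107576650, mm9). A dimmer Cpt2 probe, also measured on all 6 arrays, had the opposite sign, at -0.15. Cpt1a, the transferase of the outer membrane that sets the rate of entry, differed by 0.12 (SE 0.21), and its dimmer probe by -0.12. Cpt1b, the muscle form, differed by -0.07 (SE 0.18) and was measured on 2 arrays of each group. Slc25a20, the carnitine-acylcarnitine carrier, had 0.29, -0.01 and -0.74 on the Eomes-positive arrays, against 0.38, 0.38 and 0.34 on the Eomes-negative arrays. The Eomes-negative arrays were nearly equal and the Eomes-positive ones spread below them, lowest in sort 3 (difference -0.52, SE 0.28, limma adjusted p = 0.619).

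Within mitochondrial β-oxidation, none of the 9 genes passed the test. In 5 of them, or 55.6%, the Eomes-positive level was the lower one in every sort, against 27.1% of all genes tested, and in 1, or 11.1%, the higher one, against 25.3%. Of the 5, Acads differed by -0.01 in sort 2 and Echs1 by -0.02 in sort 1. The 1 higher gene was Acadl, long-chain acyl-CoA dehydrogenase, with 1.52, 1.46 and 1.68 on the Eomes-positive arrays of sorts 1, 2 and 3, against 1.23, 0.68 and 1.02 on the Eomes-negative arrays. The groups did not overlap (difference 0.57, SE 0.19, limma adjusted p = 0.264). Hadh, the dehydrogenase of short and medium 3-hydroxyacyl chains, had 2.14, 1.90 and 1.68 on the Eomes-positive arrays, against 2.36, 2.41 and 2.23 on the Eomes-negative arrays. Here every Eomes-positive array lay below every Eomes-negative one (difference -0.43, SE 0.17, limma adjusted p = 0.386). Acadm, the medium-chain dehydrogenase, differed by -0.43 (SE 0.25), and Acads, the short-chain one, by -0.17 (SE 0.14). Echs1, the short-chain hydratase, differed by -0.21 (SE 0.15), and the thiolase gene Acaa2 by -0.38 (SE 0.17, limma adjusted p = 0.470). These 5 negative mean differences kept their sign when arrays were scaled by the median or by quantiles. The count of directions within each sort was not repeated with those scalings. The differences of the very-long-chain dehydrogenase gene Acadvl (SE 0.14) and of Hadha (SE 0.26) and Hadhb (SE 0.14), the subunits of the trifunctional protein, were all -0.02. Those of all 3 turned positive with median scaling, at 0.08 each, and that of Hadhb also with quantile normalization, at 0.03. Etfa and Etfb, the subunits of the electron transfer flavoprotein, differed by -0.02 (SE 0.15) and 0.08 (SE 0.18).

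Promoter sequences are shown for 4 of these genes, the Hadha and Hadhb pair because its genes start head to head, and Acadl and Hadh because their differences had opposite signs. Each runs 5′ to 3′ on the strand of its gene, 250 bases before to 50 bases after the start, from RefSeq in the GRCm38.p6 build. Capitals mark the GC box GGGCGG and the CCAAT box CCAAT on either strand.
Hadha (chr5:30154931-30155230, minus strand): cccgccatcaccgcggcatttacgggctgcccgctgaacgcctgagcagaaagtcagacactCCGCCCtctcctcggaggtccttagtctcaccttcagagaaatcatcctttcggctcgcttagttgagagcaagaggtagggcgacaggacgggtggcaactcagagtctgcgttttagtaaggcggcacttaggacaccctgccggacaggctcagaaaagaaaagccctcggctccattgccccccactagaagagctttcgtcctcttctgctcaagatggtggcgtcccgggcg
Hadhb (chr5:30155003-30155302, plus strand): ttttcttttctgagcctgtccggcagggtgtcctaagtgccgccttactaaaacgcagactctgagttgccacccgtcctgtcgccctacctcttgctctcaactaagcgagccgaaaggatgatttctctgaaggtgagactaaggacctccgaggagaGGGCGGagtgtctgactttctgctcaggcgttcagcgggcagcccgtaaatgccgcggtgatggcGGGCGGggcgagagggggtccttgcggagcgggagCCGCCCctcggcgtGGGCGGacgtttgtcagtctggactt
Acadl (chr1:66863260-66863559, minus strand): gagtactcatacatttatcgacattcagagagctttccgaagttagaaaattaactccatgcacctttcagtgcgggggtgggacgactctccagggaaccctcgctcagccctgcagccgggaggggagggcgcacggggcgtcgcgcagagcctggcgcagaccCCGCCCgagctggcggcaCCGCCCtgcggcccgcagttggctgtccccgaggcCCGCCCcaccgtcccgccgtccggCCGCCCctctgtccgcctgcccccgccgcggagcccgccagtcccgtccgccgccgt
Hadh (chr3:131272052-131272351, minus strand): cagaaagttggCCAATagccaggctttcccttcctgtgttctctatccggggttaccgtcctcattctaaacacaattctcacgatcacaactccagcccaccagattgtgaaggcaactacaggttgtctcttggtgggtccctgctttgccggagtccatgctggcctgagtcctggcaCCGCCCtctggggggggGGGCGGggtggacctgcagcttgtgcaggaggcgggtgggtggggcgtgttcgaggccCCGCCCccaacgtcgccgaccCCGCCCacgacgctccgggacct
The Hadha and Hadhb windows lie on opposite strands and share 228 bases. Hadhb, Acadl and Hadh each held 4 GC boxes and Hadha 1, and a CCAAT box was found in the Hadh window alone among these 4. The promoter table used here matched 32 of the 39 genes by symbol, and these had 38 promoters. GGGCGG was in 26 of the 38, or 68.4%, against 35.7% of all 32851 promoters of the same length. CCAAT was in 18, or 47.4%, against 37.4%. The half-site of nuclear receptors, AGGTCA, was in 12, or 31.6%, against 16.3%, and a direct repeat of it spaced by 1 base in 0, against 0.0396%. The T-box core TCACAC was in 5, or 13.2%, against 14.5%. The E-box CACGTG was in 2, or 5.26%, against 7.15%, and the sterol regulatory element TCACNCCAC in 1, or 2.63%, against 1.24%. Both strands were searched, AGGTCA lies within the spaced repeat, and a match is a run of letters and no measured binding.

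**Figure D3:**
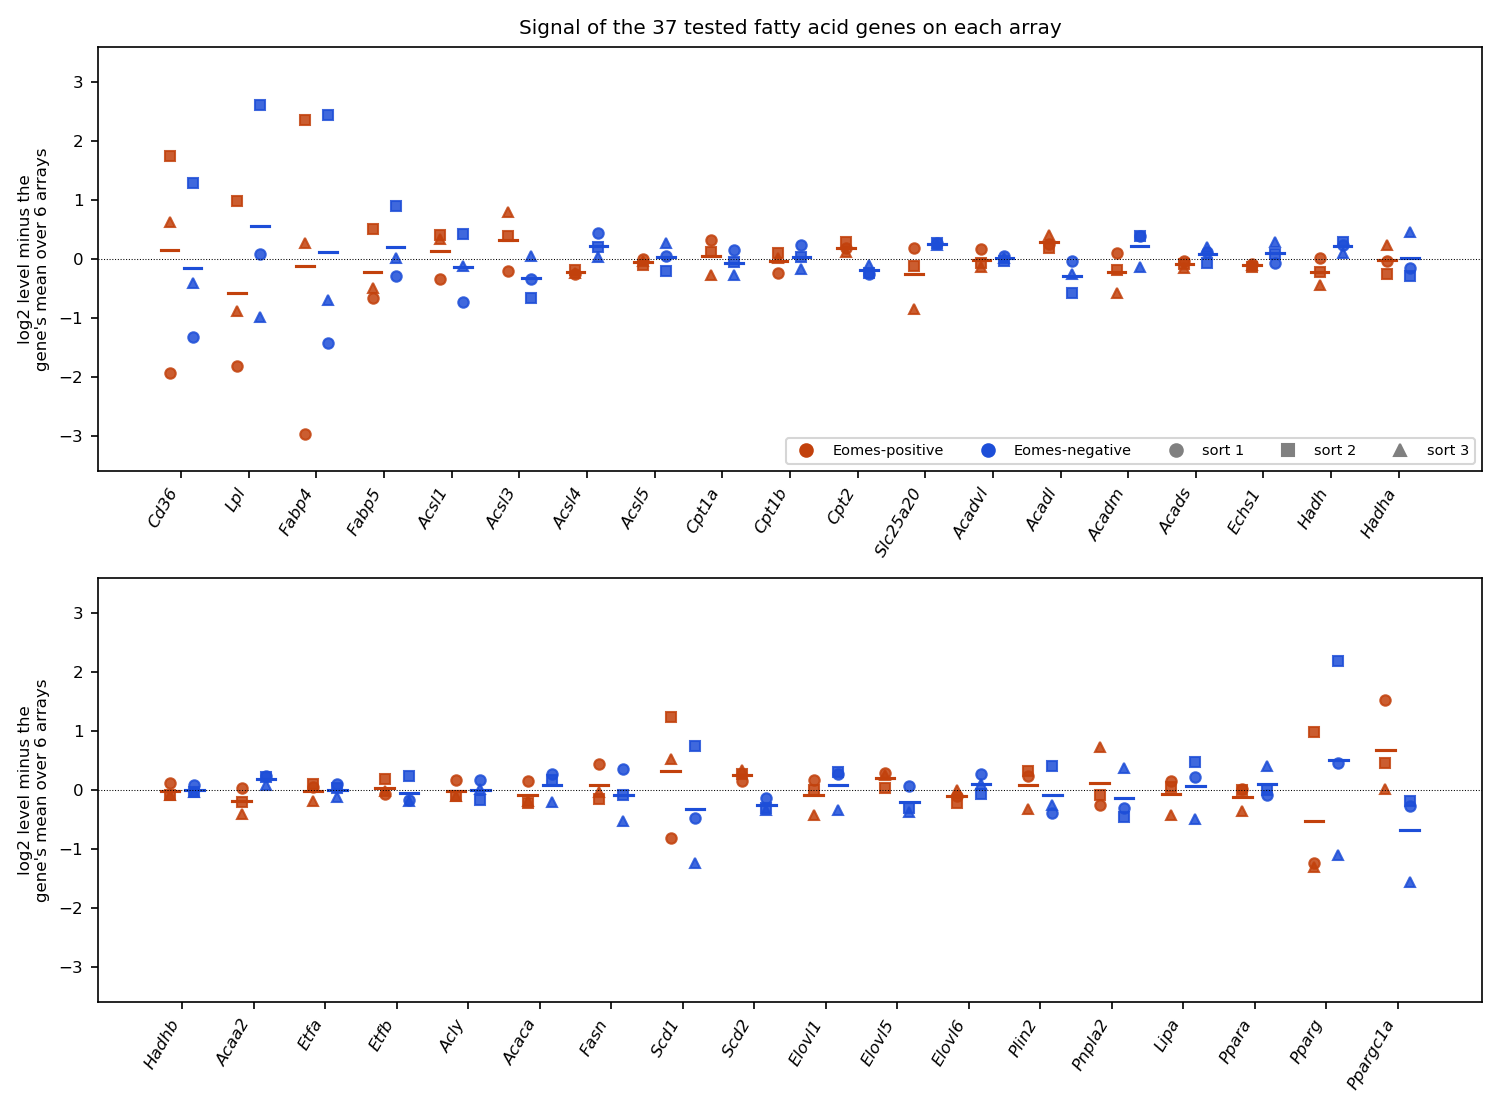
Log2 level of each of the 37 tested genes minus that gene's mean over the 6 arrays, for every array. Colours are the groups, shapes the sorts and bars the group means. Points of Cd36, Lpl, Fabp4, Scd1 and Pparg spread over the sorts, while those of most oxidation genes lie within 1 log2 unit of the gene's mean.

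Synthesis genes differed little. Acly, ATP-citrate lyase, which makes cytosolic acetyl-CoA, differed by -0.02 (SE 0.16), and a dimmer probe by -0.39. Acaca, acetyl-CoA carboxylase, differed by -0.16 (SE 0.20). Fasn, fatty acid synthase, averaged -2.35 ± 0.31 on the Eomes-positive arrays and -2.52 ± 0.44 on the Eomes-negative arrays (SD, n = 3 each). These groups overlapped (difference 0.17, SE 0.28, limma adjusted p = 0.965).

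Among the enzymes that modify the finished chain, the desaturase gene Scd2 came nearest to the threshold. Scd2, a stearoyl-CoA desaturase that makes monounsaturated fatty acids, had levels of 2.84, 2.96 and 3.02 on the Eomes-positive arrays of sorts 1, 2 and 3, against 2.54, 2.37 and 2.35 on the Eomes-negative arrays. No arrays overlapped between the groups, and the 3 arrays of each lay close together. The difference was 0.52 (SE 0.14, 95% interval 0.18 to 0.86, limma adjusted p = 0.162), and 0.30, 0.59 and 0.67 within sorts 1, 2 and 3. With the sort as a block its limma adjusted p was 0.0834. The probe lies at chr19:44381024-44381083 in mm9. Scd1, the related desaturase of liver and fat, had -4.26, -2.21 and -2.91 on the Eomes-positive arrays, against -3.92, -2.69 and -4.68 on the Eomes-negative arrays. Its sorts disagreed in sign, and the groups overlapped (difference 0.64, SE 0.70). Elovl5, an elongase of polyunsaturated chains, had 3.87, 3.62 and 3.85 on the Eomes-positive arrays, against 3.65, 3.29 and 3.22 on the Eomes-negative arrays. It was higher in the Eomes-positive cells of each sort, with a slight overlap of the groups (difference 0.40, SE 0.18, limma adjusted p = 0.479). Elovl1, which extends very long chains, differed by -0.16 (SE 0.26), and Elovl6, which extends palmitate, by -0.21 (SE 0.15).

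Storage and lipolysis genes did not pass the test either. Plin2, a coat protein of lipid droplets, differed by 0.16 (SE 0.29), and by 0.62, -0.09 and -0.06 within sorts 1, 2 and 3. Pnpla2, adipose triglyceride lipase, had levels of 1.29, 1.47 and 2.28 on the Eomes-positive arrays of sorts 1, 2 and 3, against 1.25, 1.09 and 1.92 on the Eomes-negative arrays. Sort 3, with the smaller RNA input and the youngest mice, was the highest in both groups (difference 0.26, SE 0.35). Lipa, the acid lipase of lysosomes, differed by -0.14 (SE 0.31).

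The regulators included the gene with the largest difference of the 37. Ppargc1a, the coactivator PGC-1α, known for mitochondrial and fatty acid oxidation genes, had levels of -2.87, -3.94 and -4.38 on the Eomes-positive arrays of sorts 1, 2 and 3, against -4.68, -4.59 and -5.97 on the Eomes-negative arrays. The groups did not overlap, but the probe was dim and was measured on 2 arrays of each group. The difference was 1.35 (SE 0.54, limma adjusted p = 0.396), and 1.81, 0.65 and 1.59 within the sorts. It was smaller with normexp background correction (0.48, adjusted p = 0.712) and with the mean of all probes (0.76, 0.250), and also without the Eomes-positive array of sort 1 (0.92) or the Eomes-negative array of sort 3 (0.91). It was 1.69 (adjusted p = 0.0204) with the slide as a block, 1.57 (0.0490) with the slide as a random block, 1.77 within slide 1 and 1.59 within slide 3. The fit with the slide as a block draws nothing from the Eomes-positive array of sort 2, which was alone on its slide. The slide fits gave the only 2 calls of any of the 37 genes in the 21 other settings that gave a test. The probe lies at chr5:51848928-51848987 in mm9. Pparg, a lipid-sensing nuclear receptor of macrophages and adipocytes, had -3.05, -0.84 and -3.13 on the Eomes-positive arrays, against -1.36, 0.37 and -2.92 on the Eomes-negative arrays. It was lower in the Eomes-positive cells of each sort, by the least in sort 3, and the groups overlapped (difference -1.04, SE 1.01, limma adjusted p = 0.886). Ppara, the receptor that drives oxidation genes in liver, differed by -0.22 (SE 0.20).

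Among other genes of the same pathways, Acsbg1, Plin3 and Agpat4, all measured on all 6 arrays, were lower in Eomes-positive cells. A further call, Acacb, entered the test through its Eomes-negative arrays alone, which fixed its direction. These 138 genes were listed by role, and 112 of them were tested. With Acacb, the limma fit called 0 higher and 4 lower, which is set beside 1.21% higher and 1.57% lower among all genes tested. At an unadjusted p under 0.05, 16 differed, or 14.3%, close to the 12.3% of all genes tested. With the sort as a block 1 was higher and 7 were lower, beside 3.67% and 4.34% of all genes tested. The 3 added to the lower ones were the transporter gene Slc27a6 (-1.42, adjusted p = 0.0422), the lipase maturation gene Lmf1 (-0.59, 0.0403) and the acyltransferase gene Agpat5 (-0.66, 0.0286). The higher one was the phosphatidate phosphatase gene Lpin2 (0.78, 0.0230).

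Acsbg1, an acyl-CoA synthetase of the bubblegum family, had the largest difference of these genes. Its levels were -0.30, -0.92 and -0.38 on the Eomes-positive arrays of sorts 1, 2 and 3, against 2.41, 3.09 and 3.44 on the Eomes-negative arrays. The groups were far apart in each sort (difference -3.51, SE 0.32, limma adjusted p = 0.00716; probe at chr9:54453010-54453069, mm9). With the slide as a block it was -3.38 (adjusted p = 0.0262), within slide 1 it was -3.05, and within slide 3 it was -3.82. The difference was -3.27 without sort 2, in which the macrophage markers were highest. The summed signal of the αβ T cell markers was 8.93 to 9.03 on the Eomes-positive arrays and 15.4 to 18.9 on the Eomes-negative arrays. Without Cd8b1, and with the probe shared by Trac and Tcra counted once, it was 7.85 to 8.54 on the Eomes-positive and 10.69 to 13.4 on the Eomes-negative arrays. Single markers of that list differed between -2.86 for Cd8b1 and 0.18 for Tcra. The part of such cells in the 4 differences was not tested. The call ended without sort 1 (adjusted p = 0.0870), sort 2 (0.125) or sort 3 (0.0836), each of which left 4 arrays, and held whichever single array was left out.

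Plin3, a coat protein of lipid droplets, had levels of 1.69, 1.66 and 1.71 on the Eomes-positive arrays of sorts 1, 2 and 3, against 2.77, 3.06 and 2.86 on the Eomes-negative arrays. The 3 Eomes-positive arrays were nearly equal, and all lay more than 1 log2 unit below every Eomes-negative array (difference -1.21, SE 0.14, limma adjusted p = 0.0144). With the slide as a block it was -1.20 (adjusted p = 0.0543), within slide 1 -1.23, and within slide 3 -1.15. The call ended without sort 1 (0.227), sort 2 (0.236) or sort 3 (0.115) (4 arrays each), and with no filter on dim probes (0.0707). It also ended without each single array (adjusted p up to 0.0803) other than the Eomes-negative one of sort 1 (0.0499). Its probe lies at chr17:56418429-56418488.

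Agpat4, an acyltransferase that makes phosphatidic acid, had 0.85, 1.05 and 0.86 on the Eomes-positive arrays of sorts 1, 2 and 3, against 1.75, 2.01 and 1.68 on the Eomes-negative arrays. The groups did not overlap (difference -0.89, SE 0.16, limma adjusted p = 0.0497; probe at chr17:12412423-12412482). With the slide as a block it was -0.94 (adjusted p = 0.0881), within slide 1 -1.03, and within slide 3 -0.82. Acacb, the mitochondrial acetyl-CoA carboxylase whose product inhibits the carnitine shuttle, had -5.26, -5.33 and -5.40 on the Eomes-positive arrays, against -3.88, -4.23 and -3.33 on the Eomes-negative arrays. It was measured on the 3 Eomes-negative arrays alone and passed the filter through them. With the Eomes-positive arrays set to the lowest signal well above background there, or to their own where higher, the group means put Eomes-positive cells at least 2.77-fold lower. The difference of the signals as read was -1.52 (SE 0.25, limma adjusted p = 0.0424). With the slide as a block it was -1.58 (adjusted p = 0.0898), within slide 1 -1.20, and within slide 3 -2.08. The difference was -0.58 with normexp background correction and -0.83 with the mean of all probes, so the bound holds for this scaling and probe only. The Agpat4 and Acacb calls ended whichever sort or array was left out, with adjusted p-values up to 0.437 for Agpat4 and 0.398 for Acacb. The Agpat4 call also ended with normexp (0.0687), quantile normalization (0.0547), median scaling (0.126), the authors' value table (0.0511), no filter on dim probes (0.209) and the mean of all probes (0.0547), and it held in 4 of 21 other settings. The Acacb call also ended with normexp (0.871), quantile normalization (0.0962), median scaling (0.105), no filter (0.107), the mean of all probes (0.187) and a mean-variance trend with robust variances (0.0730), and it held in 3 of 20.

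By role, 20 of 26 other uptake, binding and activation genes were tested, and Acsbg1 was the 1 call. Of 24 other synthesis, desaturation and elongation genes, 17 were tested and Acacb was the 1 call, and of 28 storage and lipolysis genes, 21 were tested and Plin3 and Agpat4 were called. No call was made by limma among 18 tested of 20 other mitochondrial genes (1 at an unadjusted p under 0.05, or 5.56%). The brightest were Hsd17b10, a mitochondrial hydroxyacyl-CoA dehydrogenase, at -0.30 (SE 0.15), and the isomerase gene Eci1 at 0.22 (SE 0.18). None was made among 16 tested of 18 peroxisomal genes (2 at that level, or 12.5%), where the sterol carrier thiolase gene Scp2 differed by -0.46 (SE 0.18) and the thiolase gene Acaa1a by -0.07 (SE 0.13). None was made among 20 tested of 22 regulators (2, or 10%), where Rxrb, a partner of the lipid receptors, differed by -0.04 (SE 0.19) and Scap, the sterol sensor, by -0.30 (SE 0.17).

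**Figure D4:**
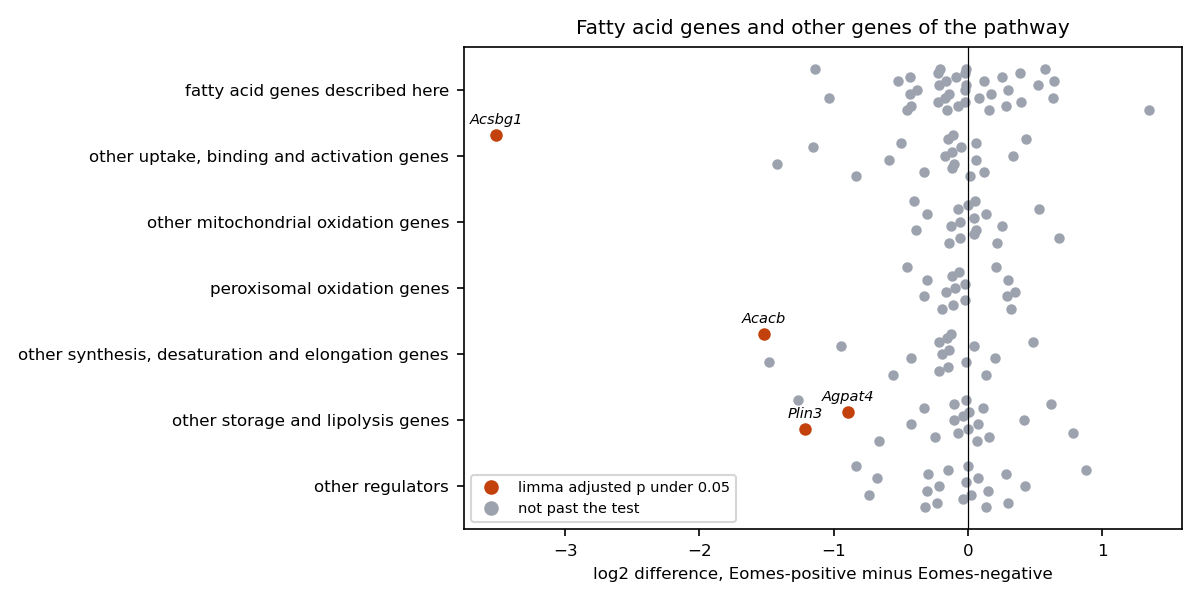
Log2 difference, Eomes-positive minus Eomes-negative, of the 37 tested fatty acid genes (top row) and of the other tested genes of the pathway by role. Each point is 1 gene, its height within a row has no meaning, and orange marks genes past the limma test. Acsbg1 lies at -3.51, apart from the rest, and Acacb, Plin3 and Agpat4 are the other points past the test.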

How the data were processed

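Total RNA was amplified once, labelled and hybridised to one-colour Agilent arrays. Per the file headers, the scanner intensity values were made by the authors with Agilent Feature Extraction 10.7.3.1, with no normalization between arrays, and probe positions are in mm9. The deposited flags, in the other columns used, mark spots well above background, saturated or outlying. Non-outlying spots were averaged as log2 intensity, and the 75th percentile of each array was subtracted. A value table of intensity that the authors deposited was an alternative. RefSeq accessions named 27502 of 39429 probes, and the scanner files the other 11927. Each gene was represented by its probe of highest mean, and tested if that probe was measured on 3 or more of the 6 arrays. Of 13 listed genes with several probes, 8 had several measured on at least 3 arrays, of opposite sign in Cpt1a and Cpt2. A further probe annotated Acaca maps to chromosome 12 and not 11. It did not represent the gene, but it entered these probe counts and the setting with the mean of all probes.

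Groups were compared with limma 3.58.1 (R 4.3.3, statmod 1.5.0, the data.table package, version 1.17.8) on group alone, with Benjamini-Hochberg adjustment over 16387 genes and a threshold of 0.05. The script was tested on simulated data. Same-sort arrays deviated together from their group means (correlations of 0.812, 0.817 and 0.805), and the design gives both populations from each sort, so the sort as a block is a paired fit. Slide 1 held the Eomes-positive array of sort 1 and the Eomes-negative arrays of sorts 1 and 2, slide 2 the Eomes-positive array of sort 2, and slide 3 both arrays of sort 3. With the slide as a block, the array alone on slide 2 therefore adds nothing to the group difference. Slides were scanned separately. The number of arrays limits the precision. The members and lists were chosen with earlier results of these data known. All 39 members are named, with values on every array for the 3 highest and 3 lowest differences and, added after values were seen, for others. From pathway lists, genes past the test are named, or else the 2 brightest probes, and from marker lists both. Csf1r, C1qa, Adgre1, Vcam1, Lyz2, Cd3e, Lep, Adipoq and the pathway genes past the sort block were named after their values were seen. So were Ccr2, Foxp3, Klra4 and Sox13. Python 3.11.15, pandas 2.3.3, numpy 2.4.6 and matplotlib 3.10.9 handled tables and figures.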

Additional observations from a re-analysis of the deposited data

How the results depend on the processing

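In all 21 other settings with a test, 0 of the genes of the fatty acid set were lower, and 0 were higher except 1, Ppargc1a, with the slide as a block and 1, again Ppargc1a, with it as a random block. At an unadjusted p under 0.05 limma gave 0 to 12 of the 37. The 0 came without sort 2, where 1266 of all 16387 genes were under it. The 12 came with the sort as a block, where 4296 of all genes were. Single differences changed sign in 80 of 808 values, over 21 genes, and 0 of these was a called value. The median difference of the tested members was -0.02. It was -0.00963 with normexp, -0.00436 with quantile normalization, 0.0770 with median scaling, -0.0349 with the authors' table and -0.0855 with the mean of all probes. It was -0.0381 with the slide as a block, -0.0785 with it as a random block, -0.0663 within slide 1, -0.0501 within slide 3, and -0.0871 to 0.00535 when a sort or array was omitted. The counts over all genes, 198 higher and 257 lower, became 92 and 154 without the filter on dim probes, 446 and 514 with the slide as a random block, and 602 and 711 with the sort as a replicate block. With genes measured on all 6 arrays, 166 were lower. Within slide 1 limma called 0 and 0, with 1337 genes at an unadjusted p under 0.05. Omitting 1 sort or 1 array gave 0 to 101 higher and 0 to 181 lower. Without sort 1 both counts were 0 (1353 at an unadjusted p under 0.05), and likewise without sort 2 (1266). Without sort 3 they were 41 and 28. Eomes differed by 4.76. It was 4.51 within slide 1 (limma adjusted p = 0.117), 5.62 within slide 3, which gives no test, and 4.11 to 5.12 when 1 sort or array was omitted (0.0155 to 0.250). It lost its call without sort 1 or 2, and without each Eomes-positive array or the Eomes-negative array of sort 1. With the sort as a block, the markers Cd79b (limma adjusted p = 0.0216), Ccr2 (0.0337) and Foxp3 (0.0494) were also called lower. Cd7 (0.0199) and Klra4 (0.0343) were also called higher, besides the pathway genes given above. Signals near background limit Cd36, Lpl, Fabp4, Cpt1b, Scd1, Acacb and Ppargc1a, which were not measured on every array. The cause of these changes was not tested.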
